A study of Mus musculus with 6 samples.

Results

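The genes described here are 10 members of the activin and TGF-beta pathway: the inhibin beta subunit genes Inhba, Inhbb, Inhbc and Inhbe, the activin antagonist Fst, the ligand Tgfb1, the receptor genes Tgfbr1, Tgfbr2 and Acvr2a, and the inhibitory Smad gene Smad7. They were chosen by gene name from the 55450 genes of the annotation, and all 10 were among the 17037 genes with enough reads to be tested. Counts came from 6 bulk RNA-Seq libraries of primary hepatocytes. At 0 h, 3 libraries were made from livers without damage, and 3 were made 48 h after partial hepatectomy (PHx), an operation that takes out liver lobes and sets off regrowth of the remnant. All mice were C57BL/6 on a normal diet, 10 to 12 weeks of age by the sample labels, and none carried a transgene or a further treatment that the labels name. The paper describes the replicates of a time point as biological replicates and the mice as male and slightly younger than the labels do. The 0 h livers were undamaged and not sham-operated, so the surgery itself and the regrowth that follows it cannot be told apart. Hepatocytes were released from the tissue with collagenase, in a 2-step perfusion.

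Activins are dimers of inhibin beta subunits, and together with TGF-beta they restrain the growth of hepatocytes in culture and in the liver. Such a ligand binds a type II receptor, which recruits and phosphorylates a type I receptor, and the type I receptor then phosphorylates Smad2 and Smad3, which enter the nucleus with Smad4. Follistatin binds activins outside the cell and blocks them, and Smad7 is induced by the pathway and acts back on the type I receptor.

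The depth on genes was 31419443 to 36346220 counts in the 0 h libraries and 31684152 to 33093006 in the 48 h libraries. Levels are given as CPM, a gene's counts scaled to the TMM-normalized depth of its library, and a floor of 3 counts corresponds to 0.0839 to 0.102 CPM. The labelled cell type was checked first. The 12 hepatocyte markers took 10.8% to 12.7% of the gene counts at 0 h and 8.96% to 10.5% at 48 h, and 2 of them were higher and 4 lower at 48 h. Alb, which encodes albumin, was the deepest of them (63550 ± 8914 CPM at 0 h and 35070 ± 4029 CPM at 48 h, SD, n = 3), followed by Apob (19629 ± 692 CPM and 14727 ± 1371 CPM). Markers of other liver cells were present at low levels. The summed level of 14 endothelial markers, led by Ptprb and Stab2, was 331 to 504 CPM at 0 h and 229 to 261 CPM at 48 h, and 13 of the 14 were lower at 48 h. The 12 stellate cell markers, led by Ecm1 and Reln, summed to 114 to 175 CPM and to 70.8 to 92.5 CPM, with 3 lower. The 12 Kupffer cell markers, led by Cd5l and Csf1r, summed to 86.5 to 129 CPM and to 128 to 155 CPM, with 4 higher, Cd5l, Marco, Cd68 and Cd163. The other 8, Csf1r among them, did not pass, and 4 of the 12 had negative log2 fold changes. In all, 92.9% of the endothelial, 25.0% of the stellate and 33.3% of the Kupffer markers differed, against 40.7% of all genes tested. Replicate 1 of 0 h stood apart in these markers, with the lowest 0 h level of all 14 endothelial, all 12 Kupffer and 11 of the 12 stellate markers. Among 8 cholangiocyte markers, Krt7, Epcam, Cftr and Tspan8 stayed at or below 3 counts in every library, and Krt19 did not exceed 4. Of the 8, 2 had enough reads to be tested, and Spp1 was higher at 48 h. None of 8 neutrophil markers could be tested. Camp, their most abundant, had 0 to 3 counts at 0 h and 6 to 26 at 48 h, and Elane had 1 to 5 and 8 to 16. In bulk libraries, fewer cells of a type and less RNA per cell cannot be told apart.

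Promoters are shown for 2 pairs of genes on which the results turn: the receptor genes Tgfbr2 and Tgfbr1, of which the first rose and the second did not pass the test, and the neighbouring subunit genes Inhbc and Inhbe, which had the highest levels per exon length of the 4 subunits. Each is a 300-base window, from 250 bases before to 50 bases after the RefSeq start site, written 5′ to 3′ on the strand of the gene in GRCm38.p6. Capitals mark letters matched on either strand by one of 8 motifs: CAGACA (the Smad-binding CAGA box), GTCTAGAC (its palindrome), TGANTCA (AP-1), GGGCGG (GC box), TATAAA, TGACGTCA (CRE), TTGCATCA (a composite site for C/EBP and ATF proteins) and CCAAT. The Tgfbr2 window lay at chr9:116175314-116175613 on the minus strand, the Tgfbr1 window at chr4:47352972-47353271 on the plus strand, the Inhbc window at chr10:127370499-127370798 and the Inhbe window at chr10:127351799-127352098, both on the minus strand.
Tgfbr2: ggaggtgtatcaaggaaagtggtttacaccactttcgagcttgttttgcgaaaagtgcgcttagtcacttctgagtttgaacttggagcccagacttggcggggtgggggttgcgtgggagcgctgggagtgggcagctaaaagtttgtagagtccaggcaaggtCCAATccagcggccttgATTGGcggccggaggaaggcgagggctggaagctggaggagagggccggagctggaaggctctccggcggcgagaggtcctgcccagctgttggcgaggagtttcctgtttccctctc
Tgfbr1: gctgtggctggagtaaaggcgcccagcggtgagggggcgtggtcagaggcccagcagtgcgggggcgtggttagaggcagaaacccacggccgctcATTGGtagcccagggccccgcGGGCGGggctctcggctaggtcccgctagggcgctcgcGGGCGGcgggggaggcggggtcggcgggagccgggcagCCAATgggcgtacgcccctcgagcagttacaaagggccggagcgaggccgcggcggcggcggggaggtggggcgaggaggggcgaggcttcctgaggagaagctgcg
Inhbc: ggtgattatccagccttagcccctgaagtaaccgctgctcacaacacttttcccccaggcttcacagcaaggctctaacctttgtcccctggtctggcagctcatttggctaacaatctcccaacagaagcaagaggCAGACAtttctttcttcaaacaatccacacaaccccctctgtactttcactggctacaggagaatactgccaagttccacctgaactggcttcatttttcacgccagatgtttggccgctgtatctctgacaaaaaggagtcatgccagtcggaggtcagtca
Inhbe: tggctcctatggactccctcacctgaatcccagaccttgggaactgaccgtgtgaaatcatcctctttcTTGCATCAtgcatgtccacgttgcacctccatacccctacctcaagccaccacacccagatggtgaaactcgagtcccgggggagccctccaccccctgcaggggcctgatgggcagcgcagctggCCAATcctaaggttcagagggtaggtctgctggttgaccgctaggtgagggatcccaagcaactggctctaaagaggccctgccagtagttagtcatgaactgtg

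The Tgfbr2 window, with 59% GC, held CCAAT at positions -85 and -68 from the start site and no GC box. That of Tgfbr1, with 74.7% GC, held GC boxes at -133 and -95 and CCAAT at -154 and -57. The median over all promoters of the table was 52.7% GC. Of these 32851 promoters, 35.7% held a GC box and 37.4% held CCAAT. The Inhbc window held CAGACA at -113, a match found in 21.0% of promoters. In the Inhbe window, TTGCATCA at -181 was found in 0.895% of promoters, and CCAAT stood at -55. Both of these motifs were added after the sequences had been viewed, so nothing is read from how rare they are. The RefSeq start of Inhbe lies 2563 bases inside the longer gene model on which reads were counted. Outside the windows printed, Tgfb1 had 6 GC boxes, Acvr2a had 3 and Inhbb had 1, and Inhba held TATAAA at -91. A second, downstream window of Tgfbr1 held CAGACA at -203 and CCAAT at 39. GTCTAGAC (0.213% of promoters), TGANTCA (7.81%) and TGACGTCA (1.79%) matched none of the 9 windows scanned, which came from 8 of the 10 genes. No window of Fst or Smad7 was scanned, so nothing is said of their promoters. A match is a description of letters and was not tested as a binding site.

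Tgfbr2 rose after PHx, and the other 9 genes did not pass the test in either direction. A gene was called by edgeR's quasi-likelihood test when its Benjamini-Hochberg adjusted p over all 17037 genes was under 0.05. By this rule 40.7% of all genes tested differed, 21.4% being higher and 19.3% lower at 48 h, against 1 of the 10 genes higher and 0 lower. At an unadjusted p under 0.05 the counts were also 1 and 0, and they were the same with DESeq2 and with limma-voom. The 3 libraries of one time point lay wholly above those of the other for 52.7% of all genes and for 1 of the 10. The median log2 fold change of the 10 was -0.01 (-0.003 over all genes), and the median of its absolute size was 0.23, against 0.42 over all genes. Scaling by library size alone moved the median of all genes to 0.20 and gave 5308 genes higher and 2110 lower, in place of 3638 and 3288.

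**Figure D1:**
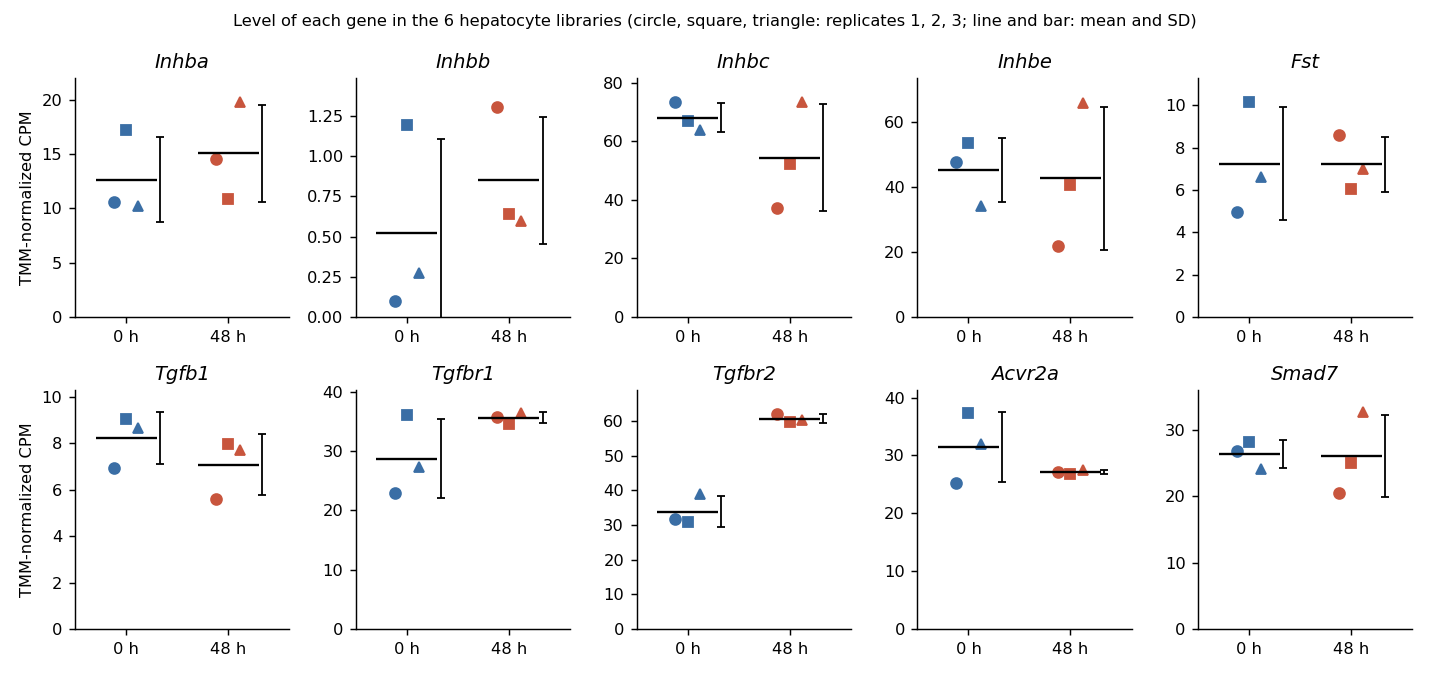
Level of each gene in each library, in TMM-normalized CPM on a linear axis from 0 (0 h in blue, 48 h in red, replicates 1 to 3 as circle, square and triangle, mean as a line and SD as a bar, which is cut at 0 for Inhbb). The 48 h libraries of Tgfbr2, at 59.9 to 62.1 CPM, sit above all 0 h libraries, and the time points overlap in every other panel.

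Among the ligands, none of the 4 inhibin beta subunit genes passed the test, and their levels per exon length ranked in the same order at both time points. Inhbc and Inhbe, which hepatocytes are known to express most, encode the beta C and beta E subunits, while Inhba and Inhbb encode the subunits of activin A and activin B. Inhba (ENSMUSG00000041324.14, chromosome 13, 16011851 to 16031621, plus strand, GRCm38) had 10.6, 17.2 and 10.2 CPM at 0 h and 14.5, 10.9 and 19.8 CPM at 48 h. The highest library at 0 h stood above 2 of the 3 libraries at 48 h. Its log2 fold change was 0.25 ± 0.24 (SE, n = 3 per time point, 95% interval -0.29 to 0.79, edgeR adjusted p = 0.444), a fold of 1.19 with an interval of 0.817 to 1.73.

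Inhbb (ENSMUSG00000037035.5, chromosome 1, 119415465 to 119422248, minus strand) was the least abundant of the 10. It had 3, 37 and 9 counts at 0 h (0.102, 1.19 and 0.271 CPM) and 44, 23 and 21 at 48 h (1.31, 0.643 and 0.60 CPM), and it met the count minimum through its 48 h libraries. The 0 h libraries spanned an 11.7-fold range, which held 2 of the 48 h values. The log2 fold change was 0.69 ± 0.65 (95% interval -0.75 to 2.14, edgeR adjusted p = 0.43). Without replicate 2 of 0 h, the library with 37 counts, it was 2.13 and the gene was called higher (edgeR adjusted p = 0.0176). The 0 h counts left are then 3 and 9, too near the floor for a measured fold. Without replicate 1 of 0 h the log2 fold change was 0.22, and without replicate 3 of 0 h 0.37. Without replicate 1 of 48 h it was 0.23. None of these was called, and limma-voom gave 1.21, also not called.

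Inhbc (ENSMUSG00000025405.9, chromosome 10, 127356322 to 127370431, minus strand) was the deepest of the 10 at 0 h and lay below Tgfbr2 in mean CPM at 48 h. Its level was 73.5, 66.9 and 63.8 CPM at 0 h and 37.2, 52.3 and 73.5 CPM at 48 h, means of 68.0 ± 4.96 and 54.3 ± 18.2 (SD, n = 3). The 0 h libraries lay close together, whereas at 48 h replicate 3 reached the 0 h range and the other 2 were below it. The log2 fold change was -0.32 ± 0.20 (95% interval -0.77 to 0.12, edgeR adjusted p = 0.226). Without replicate 3 of 48 h it was -0.61 and the gene was called lower (edgeR adjusted p = 0.0119), and without replicate 1 of 48 h it was -0.13 (edgeR adjusted p = 0.542). A share of 14.4% of its exon bases is overlapped on the opposite strand by Gm47200, and the sources used here do not say whether reads were counted by strand.

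Inhbe (ENSMUSG00000047492.5, chromosome 10, 127348857 to 127354411, minus strand) lies next to Inhbc on the same strand, 1910 bases away. It had 47.7, 53.4 and 34.2 CPM at 0 h and 21.8, 40.5 and 65.6 CPM at 48 h. As in Inhbc and Smad7, replicate 1 was lowest and replicate 3 highest at 48 h, with a 3.01-fold range that covered all the 0 h values. The log2 fold change was -0.08 ± 0.32 (95% interval -0.78 to 0.62, edgeR adjusted p = 0.86). Its SD within a time point, 0.61 on the log2 CPM scale, was at the 94.3 percentile of all genes tested, and that of Inhbb, 1.13, at the 99.8 percentile.

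Per exon length, in TPM (counts divided by length and rescaled within a library, without TMM), the beta subunit genes kept their order. TPM serve to compare genes within a time point, since between time points they stand higher at 48 h relative to CPM, also for Inhbe and Smad7, whose mean CPM were lower at 48 h. The level of Inhbc was 95.2 ± 8.18 TPM at 0 h and 91.7 ± 34.1 TPM at 48 h (SD, n = 3), that of Inhbe 22.1 ± 5.38 and 25.3 ± 13.9 TPM, that of Inhba 5.16 ± 1.74 and 7.35 ± 2.39 TPM, and that of Inhbb 0.324 ± 0.370 and 0.614 ± 0.260 TPM. Inhbc thus made up 77.7% ± 3.85 of the summed subunit TPM at 0 h and 73.8% ± 1.83 at 48 h, and Inhba 4.18% ± 1.16 and 6.21% ± 2.05. The gene model of Inhbe is 5319 bases long, so the shares depend on length. With coding length, an alternative added after the values were seen, Inhbc made up 55.1% and 49.8% and Inhbe 36.2% and 37.4%.

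The 4 subunits summed to 131, 131 and 107 TPM at 0 h and to 79.4, 118 and 178 TPM at 48 h, the 48 h libraries lying on both sides of the 0 h ones. The difference of the mean log2 sums was -0.05 (two-sided exact permutation test, p = 1, adjusted p = 1 over the 3 values tested this way), and from TMM-normalized RPKM, on the scale of the CPM values, it was -0.31 (exact permutation test, p = 0.4). With 3 libraries against 3, this test cannot give a p under 0.1. Leaving out 1 library at a time moved the difference between -0.34 and 0.24, the highest value being that without replicate 1 of 48 h.

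Tgfb1, the ligand TGF-beta 1 (ENSMUSG00000002603.15, chromosome 7, 25687002 to 25705077, plus strand), is made mainly by non-parenchymal cells of the liver. Its level was 6.94, 9.06 and 8.64 CPM at 0 h and 5.58, 7.97 and 7.71 CPM at 48 h. The ranges overlapped, and the log2 fold change was -0.21 ± 0.18 (95% interval -0.61 to 0.18, edgeR adjusted p = 0.37). At 48 h the endothelial marker sum was lower, as was the stellate marker sum, with 3 of its 12 genes called lower and 9 not passing. The Kupffer marker sum, through 4 of its 12 genes, reached higher values at 48 h. The part of these cell types in the level of Tgfb1 was not tested.

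Fst, which encodes follistatin (ENSMUSG00000021765.9, chromosome 13, 114452290 to 114458951, minus strand), showed the smallest absolute log2 fold change of the 10 genes with TMM. Scaling by library size alone took Fst from this rank. It had 4.94, 10.2 and 6.63 CPM at 0 h and 8.58, 6.04 and 7.00 CPM at 48 h. All the 48 h values fell inside the 0 h range, and the log2 fold change was -0.01 ± 0.25 (95% interval -0.55 to 0.54, edgeR adjusted p = 0.983). Its sign turned under 6 of the 15 alternatives. Set against the activin A and B subunits, the ratio of Fst to summed Inhba and Inhbb TPM was 0.642, 0.745 and 0.871 at 0 h and 0.726, 0.710 and 0.472 at 48 h. These overlapped (difference -0.26 in log2, two-sided exact permutation test, p = 0.4, adjusted p = 0.6).

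**Figure D2:**
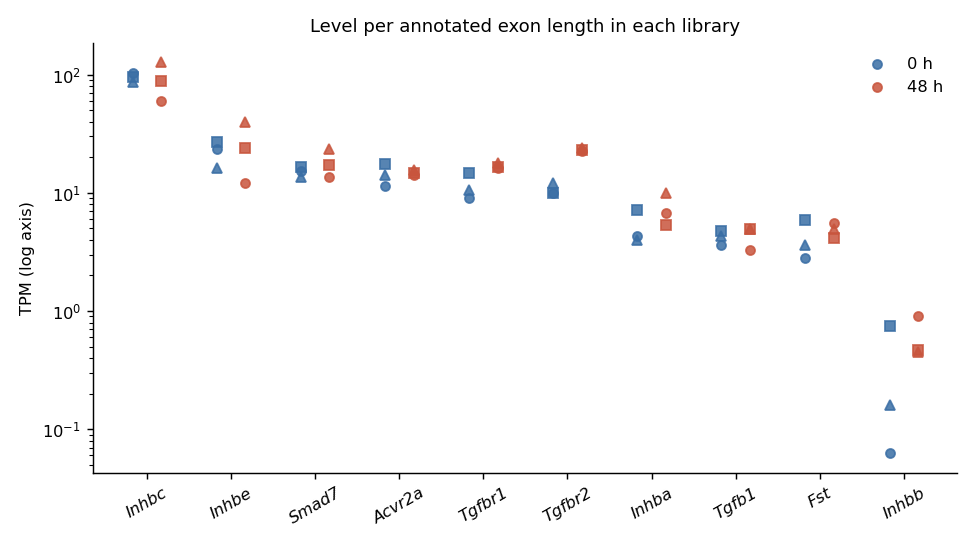
Level per annotated exon length of each gene in each library, in TPM on a log axis, ordered by the 0 h mean (0 h in blue, 48 h in red). Inhbc stands highest and Inhbb lowest at both time points, and Tgfbr2 is at 10.7 ± 1.14 TPM at 0 h and 23.1 ± 0.616 TPM at 48 h (SD, n = 3), on a scale without the TMM normalization behind the fold changes.

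The receptors held the only gene of the 10 that passed the test. Tgfbr2 (ENSMUSG00000032440.13, chromosome 9, 116084293 to 116175360, minus strand) encodes the type II receptor that binds TGF-beta. It had 31.7, 30.9 and 39.0 CPM at 0 h and 62.1, 59.9 and 60.3 CPM at 48 h, means of 33.9 ± 4.50 and 60.8 ± 1.20 (SD, n = 3). The lowest 48 h library was well above the highest 0 h library, and the spread within 48 h was small. The log2 fold change was 0.84 ± 0.11 (95% interval 0.59 to 1.09, edgeR adjusted p = 0.000222), a fold of 1.79 with an interval of 1.51 to 2.14. Without replicate 1 of 0 h the log2 fold change was 0.80 (edgeR adjusted p = 0.00192). Endothelial cells are known to express Tgfbr2 as well. The summed endothelial markers were 331 to 504 CPM at 0 h and 229 to 261 CPM at 48 h, lower where Tgfbr2 was higher. The summed Kupffer markers were 86.5 to 129 CPM and 128 to 155 CPM. Of the 12, 4 were called higher, as Tgfbr2 was, and 8 did not pass (33.3% called, against 40.7% of all genes tested). The part of either cell type in its level was not tested.

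Tgfbr1 (ENSMUSG00000007613.15, chromosome 4, 47353222 to 47414931, plus strand) encodes the type I receptor that pairs with the product of Tgfbr2. Its level was 22.9, 36.0 and 27.2 CPM at 0 h and 35.8, 34.6 and 36.4 CPM at 48 h. The 48 h libraries agreed closely, and replicate 2 of 0 h lay among them. The log2 fold change was 0.31 ± 0.15 (95% interval -0.02 to 0.64, edgeR adjusted p = 0.127). Without that replicate it was 0.50 and the gene was called higher (edgeR adjusted p = 0.00537), and without replicate 1 of 0 h it was 0.17 (edgeR adjusted p = 0.376). Scaling by library size alone gave 0.51 (edgeR adjusted p = 0.0224).

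The ratio of Tgfbr2 to Tgfbr1 counts, a value added after the data were seen, was 1.38, 0.858 and 1.43 at 0 h and 1.74, 1.73 and 1.66 at 48 h. The time points did not overlap, but the design allows no p under 0.1 (difference 0.52 in log2, two-sided exact permutation test, p = 0.1, adjusted p = 0.3).

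Acvr2a (ENSMUSG00000052155.5, chromosome 2, 48814109 to 48903269, plus strand) encodes a type II receptor for activins. It had 25.2, 37.3 and 31.9 CPM at 0 h and 27.1, 26.8 and 27.5 CPM at 48 h. The narrow 48 h range lay inside the wide 0 h range, and the log2 fold change was -0.21 ± 0.14 (95% interval -0.52 to 0.09, edgeR adjusted p = 0.248). Without replicate 1 of 0 h it was -0.35 and the gene was called lower (edgeR adjusted p = 0.0478), and without replicate 2 of 0 h it was -0.07 (edgeR adjusted p = 0.657). Replicate 1 of 0 h was also the lowest of its time point in Tgfbr1, Eng and the summed endothelial markers, but not in Tgfbr2 or Tgfbr3, which were lowest in replicates 2 and 3. A share of 7.84% of its exon bases is overlapped on the opposite strand by Orc4.

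Smad7 (ENSMUSG00000025880.11, chromosome 18, 75367529 to 75395935, plus strand), the inhibitory Smad gene, had 26.8, 28.3 and 24.2 CPM at 0 h and 20.5, 25.1 and 32.7 CPM at 48 h. The means were close, 26.4 ± 2.08 and 26.1 ± 6.14 (SD, n = 3), with a wider spread at 48 h. The log2 fold change was -0.02 ± 0.16 (95% interval -0.37 to 0.34, edgeR adjusted p = 0.941).

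Of the 9 genes that did not pass, 8 had a 95% interval within 1 log2 unit of 0, the exception being Inhbb. Apart from Inhbb these intervals ran from -0.78 to 0.79, so smaller changes in either direction were not resolved. The SD within a time point exceeded the median of all genes (0.22 on the log2 CPM scale) for 8 of the 10.

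**Figure D3:**
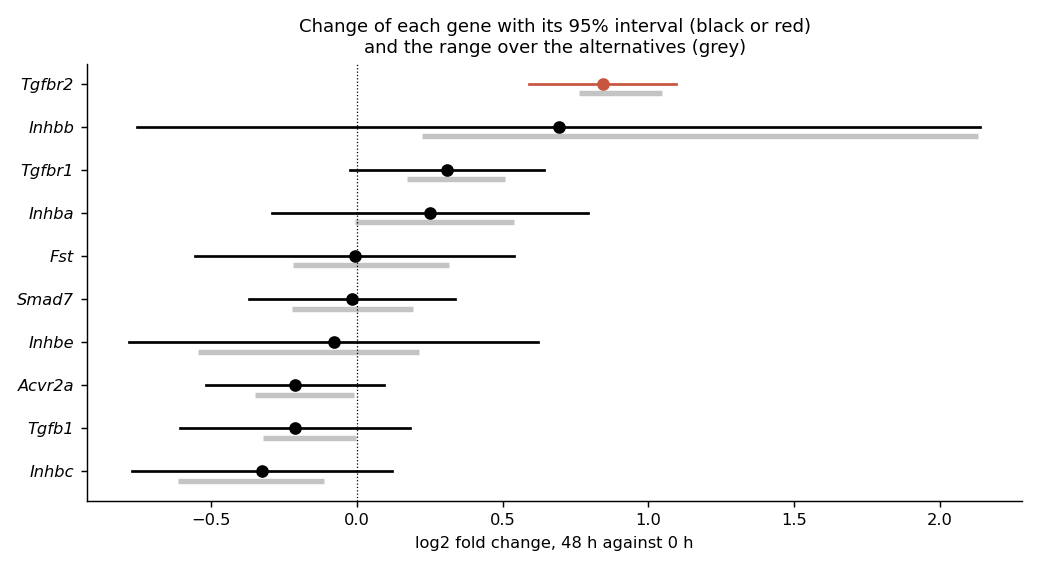
Log2 fold change of each gene at 48 h against 0 h, as a point with its 95% interval (red where called), above a grey bar for the range over the alternative processings. The interval of Tgfbr2, 0.59 to 1.09, is the only one that lies wholly to one side of 0.

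By TPM, the order of the genes at 0 h was Inhbc, Inhbe, Smad7, Acvr2a, Tgfbr1, Tgfbr2, Inhba, Tgfb1, Fst and Inhbb. Only 3 pairs of neighbours in that order did not overlap between libraries: Inhbc and Inhbe, Tgfbr2 and Inhba, and Fst and Inhbb. At 48 h Tgfbr2 came directly after Inhbe, with Smad7, Tgfbr1 and Acvr2a after it. There the neighbours Tgfbr1 and Acvr2a (16.9 ± 0.899 and 14.9 ± 0.721 TPM) no longer overlapped, nor did Inhbc and Inhbe, Acvr2a and Inhba, or Tgfb1 and Inhbb.

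The genes whose levels ran most like Tgfbr2 over the 6 libraries were Pbdc1, Otud6b, Ttc39a, Bzw1 and Dmd, with Pearson's r between 0.997 and 0.999 among 13329 genes compared. The libraries form 2 groups, so r mainly reads the difference between time points and is given as a description. Their mean levels at 0 h and 48 h were 3.39 and 8.61 CPM for Pbdc1, 23.8 and 36.9 CPM for Otud6b, 1.88 and 7.97 CPM for Ttc39a, 84.5 and 127 CPM for Bzw1, and 28.8 and 48.7 CPM for Dmd, the dystrophin gene.

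The rest of the pathway was described by 5 lists of ligands, receptors, Smads, extracellular and intracellular regulators. Of 73 genes found in the annotation, 59 could be tested, and 12 were higher, 10 lower and 37 did not pass. That is 37.3% called, against 40.7% of all genes, and their median log2 fold change was 0.01.

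Among 15 other ligands tested, 3 were higher and 1 lower. Gdf10 rose (log2 fold change 1.15 ± 0.25 SE, edgeR adjusted p = 0.0047), as did Bmp7 (1.06 ± 0.32, edgeR adjusted p = 0.0231). Bmp2, a BMP made by liver endothelium, fell by 0.89 on the log2 scale (edgeR adjusted p = 0.00984). The 14 endothelial markers had a median log2 fold change of -0.83, and their part in the fall of Bmp2 was not tested. Bmp8b was the other ligand called higher, at a mean under 1 CPM. Inha, the alpha subunit that turns an activin into an inhibin, had 0 to 3 counts in every library.

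Of 10 other receptor genes tested, 1 rose and 3 fell. Bmpr1a, a type I BMP receptor, rose (0.35 ± 0.10, edgeR adjusted p = 0.0201), and the type II BMP receptor gene Bmpr2 fell by 0.42 (edgeR adjusted p = 0.0123). Eng and Tgfbr3, the co-receptors endoglin and betaglycan, fell by 0.90 and 0.91 (edgeR adjusted p = 0.000528 and 0.0048), in the direction opposite to Tgfbr2. The level of Eng was 37.1, 48.3 and 51.1 CPM at 0 h and 21.8, 26.8 and 24.6 CPM at 48 h. Endoglin is known as an endothelial protein, and the summed endothelial markers were lower in the same libraries, a part in these 2 results that was not tested. Of the activin receptor genes beside Acvr2a, Acvr1b gave -0.18 ± 0.11 (edgeR adjusted p = 0.228) and Acvr2b -0.42 ± 0.18 (edgeR adjusted p = 0.0888).

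**Figure D4:**
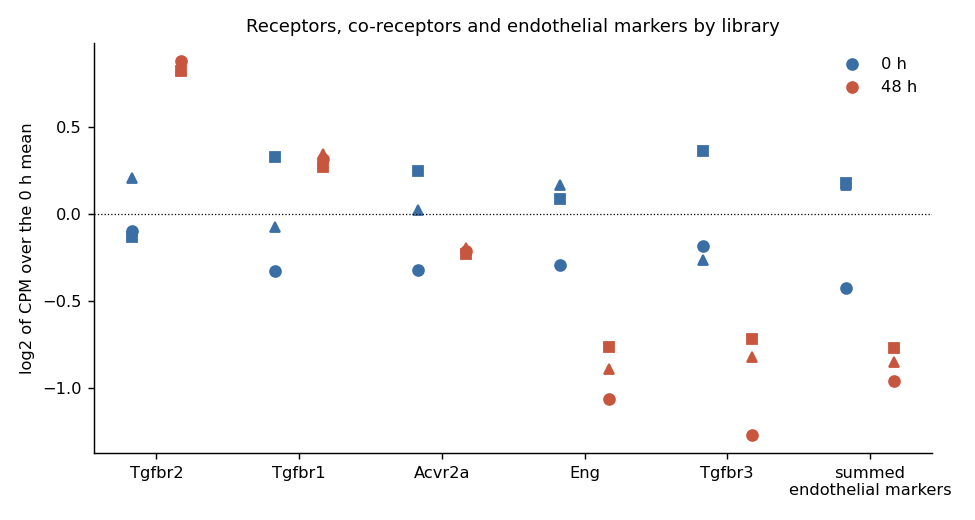
Level of receptor and co-receptor genes and of the summed endothelial markers in each library, as log2 of CPM over the 0 h mean (0 h in blue, 48 h in red). Tgfbr2 lies at 0.82 to 0.88 in the 48 h libraries, and Eng, Tgfbr3 and the summed endothelial markers lie below 0 there.

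Of the 7 other Smad genes, 2 rose and 1 fell. Among the 3 receptor-activated Smads of the BMP branch, Smad1 rose by 0.58 ± 0.15 (edgeR adjusted p = 0.0102) and Smad5 by 0.36 ± 0.10 (edgeR adjusted p = 0.0175), whereas Smad9 gave -0.44 ± 0.23 and did not pass (edgeR adjusted p = 0.155). Smad6, the inhibitory Smad of that branch, fell by 0.47 (edgeR adjusted p = 0.0353). The Smads through which activin and TGF-beta signal did not pass. Smad2 gave 0.24 ± 0.11 (edgeR adjusted p = 0.127), Smad3 -0.04 ± 0.11 (edgeR adjusted p = 0.792) and the common Smad4 0.26 ± 0.10 (edgeR adjusted p = 0.052).

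Of 12 extracellular regulators tested, 1 rose and 4 fell. Bmper, a BMP-binding protein, had 2, 6 and 4 counts at 0 h and 456, 185 and 82 at 48 h, and passed the test (edgeR adjusted p = 0.000181), with 0 h counts too near the floor for a measured fold. Ltbp4, which tethers latent TGF-beta in the matrix, fell from 34.1 ± 6.23 to 6.76 ± 1.56 CPM (edgeR adjusted p = 6.7e-06). Lrrc32, which holds latent TGF-beta at the cell surface, fell by 0.97 on the log2 scale (edgeR adjusted p = 0.00854), beside the lower endothelial markers, whose part was not tested. Fstl3, the relative of Fst, had 0 to 4 counts in every library.

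Of 15 intracellular regulators, 5 rose and 1 fell. Fkbp1a, whose product binds the type I receptor, rose from 59.9 ± 3.23 to 115 ± 10.9 CPM (edgeR adjusted p = 0.000105). Pmepa1 and Strap, known inhibitors of TGF-beta signalling, rose by 1.27 ± 0.30 and 0.57 ± 0.13 (edgeR adjusted p = 0.00691 and 0.00533). Smurf1, a ubiquitin ligase, fell by 0.37 (edgeR adjusted p = 0.0179).

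Genes known to respond to TGF-beta or activin moved both ways, 5 of 14 rising and 3 falling (57.1% called, against 40.7% of all genes tested). With few genes in the list, this share was not tested against the background. Pmepa1, Ltbp2, Skil and Bambi also belong to the pathway lists above. Cdkn1a, the cell cycle inhibitor p21, rose from 7.52 ± 1.13 to 81.2 ± 12.5 CPM (edgeR adjusted p = 1.19e-07). Col1a1 rose by 2.30 ± 0.24 (edgeR adjusted p = 4.58e-05), whereas Junb fell by 0.88 and Ldlrad4 by 0.62 (edgeR adjusted p = 0.00157 and 0.00811). These genes also answer to other signals.

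Of 9 genes known to respond to BMP, 2 rose and 5 fell (77.8% called, against 40.7% of all genes tested). The list has few genes, and its share was not tested against the background. Smad6 and Smad9 also belong to the list of Smads above. Id1 rose by 2.67 ± 0.34 (edgeR adjusted p = 0.000147) and Id3 by 0.43 ± 0.15 (edgeR adjusted p = 0.0384). Id2 and Atoh8 fell, by 0.67 and 0.63 (edgeR adjusted p = 0.00301 and 0.00113).

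**Figure D5:**
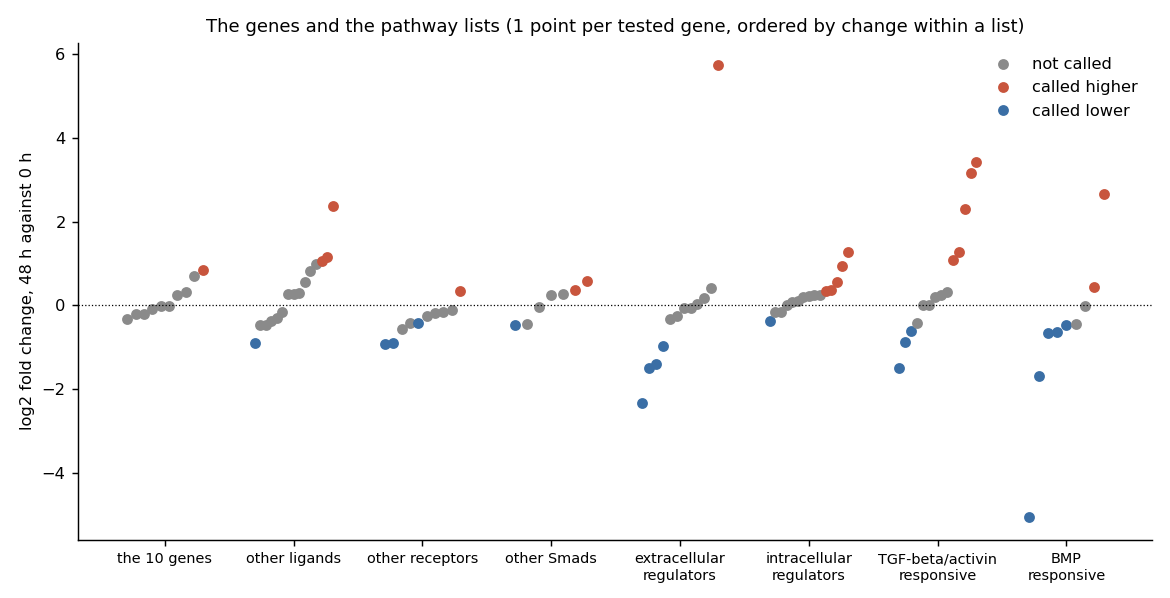
Log2 fold change at 48 h against 0 h of the 10 genes and of every tested gene of the pathway and responsive lists, 1 point per gene (called higher in red, called lower in blue, not called in grey). Of the 10 genes only Tgfbr2 is called, and called genes of both directions appear in each of the other lists.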

How the data were processed

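Primary mouse hepatocytes at 0 h and 48 h after PHx were profiled by bulk RNA-Seq, with 3 libraries each, grouped by the sample labels. The authors deposited raw counts per gene in htseq-count layout, without normalization. The submitters' processing notes name FastQC 0.11.5, Trim Galore 0.6.4, STAR 2.6, HTSeq 0.12.4, DESeq2 and build mm10. Counting mode and strand setting are not given in the sources used here. All 55450 gene identifiers matched GENCODE M21, from which names, coordinates and exon lengths were taken. The closing lines for reads left unaligned, of low quality or with several alignments hold 0, and reads on no gene made up 24.3% to 32.7% of each file, which were left out.

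The 10 genes and all lists were chosen with earlier results of these data known. Genes that reached 10 counts in 3 or more libraries were tested with edgeR 4.0.16 (R 4.3.3, TMM, glmQLFit and glmQLFTest, time as the only term) and Benjamini-Hochberg adjustment. The SE was taken from the quasi-likelihood F statistic. CPM are TMM-normalized, and TPM used the summed exon length. Single values were compared by two-sided exact permutation tests. The floor was 3 counts, which covers counting error only because reads carry no molecular identifiers. Named were the 10 genes, up to 3 called genes per direction and pathway or responsive list with a mean of at least 1 CPM, the 2 deepest markers per cell type, and the 5 genes most correlated with the called gene that rose most. Some genes this rule covers are left unreported. Other genes were named after their values were seen. These include Bmp8b, Inha, Fstl3, Acvr1b, Acvr2b, Smad2, Smad3, Smad4, Smad9, Marco, Cd68, Cd163 and the cholangiocyte markers at the floor. Of genes listed under more than 1 symbol, the annotation held Ccn1, Ccn2 and Hfe2.

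Promoters came from a RefSeq table (GRCm38.p6). Windows on chromosome 18, where Smad7 lies, were left out, and none was found for Fst, so 8 of the 10 genes were scanned. Motifs were chosen by hand, and TTGCATCA and CCAAT were added after the sequences were viewed. Alternatives were DESeq2 1.42.0, limma-voom (limma 3.58.1), other normalizations and filters, the replicate number as a block, and leaving out each library. The Tgfbr2 to Tgfbr1 ratio and coding length were added after the values were seen. The test was tried on simulated counts first.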

Additional observations from a re-analysis of the deposited data

How the results depend on the processing

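Over 15 alternatives, Tgfbr2 kept its direction and its call, with a log2 fold change of 0.76 to 1.05. Scaling by library size alone gave 2110 genes lower (3288 with TMM), 2 of the 10 genes higher (Tgfbr1 added) and 22 pathway genes higher (12 with TMM), and turned Inhbe to 0.14, Fst to 0.18 and Smad7 to 0.19. By construction it adds the shift of all genes given above. Limma-voom turned Fst to 0.034. Leaving out 1 library at a time gave 1 to 3 of the 10 genes higher and 0 to 1 lower, 2874 to 3451 genes higher and 2638 to 3223 lower among all genes, and 8 to 13 pathway genes higher and 8 to 12 lower. The log2 fold changes then ran from -0.0069 to 0.54 for Inhba (lowest without replicate 3 of 48 h), -0.55 to 0.21 for Inhbe (above 0 without replicate 2 of 0 h or replicate 1 of 48 h), -0.22 to 0.31 for Fst (above 0 without replicate 2 of 0 h or replicate 2 or 3 of 48 h) and -0.22 to 0.11 for Smad7 (above 0 without the same libraries as Inhbe). The summed subunit difference ran from -0.34 to 0.24 and was -0.31 from TMM-scaled RPKM. The Fst ratio ran from -0.37 to -0.06 and the Tgfbr2 to Tgfbr1 ratio from 0.28 to 0.65.

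Libraries with the same replicate number did not deviate together (r = 0.033, -0.067 and -0.138), and not every library correlated best with its own number, so the numbers do not pair the samples. A fit with the replicate block gave 3237 higher and 2884 lower genes. In it Tgfbr2 had 0.85 (edgeR adjusted p = 0.000843) and Fst turned to 0.034. With a minimum of 50 counts Inhbb, at 3 to 44 counts, was not tested. Depth limits Inha and Fstl3, which had 0 to 4 counts in every library and were not tested.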
